A study of Rattus norvegicus with 21 samples.

Results

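Described here are the protein kinases that answer to calcium, lipid and cyclic nucleotide second messengers, together with the mitogen-activated protein (MAP) kinases and the kinases that activate them, in rat spinal cord. They were chosen by name: all probes whose gene symbol in the array's annotation begins with Prkc, Prka, Prkg, Camk, Mapk, Map2k, Map3k or Map4k. The rule found 50 probes of 48 genes, among 5376 probes and 4153 genes named by a single symbol, and each of the 50 had a value on at least 1 array. By family these were 14 probes of calmodulin-dependent kinases and their relatives, 11 of MAP kinases (including the scaffold gene Mapk8ip1), 8 of protein kinase C, 5 of protein kinase A, 5 of the AMP-activated protein kinase, 6 of the MAP kinase cascade above the MAP kinases and 1 of protein kinase G (Prkg2). Camk2a and Camk2d had 2 probes each, which were kept apart. No probe named Map4k was found.

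The study placed RNA of rat spinal cord on 2-colour arrays, with 3 arrays in each of 7 groups and a pool of cultured cord in the other channel. CKIN, MP and Acet are spinal cord cultures treated with CKIN, MP or acetaminophen for 4 hr and set against a pool of PBS-treated 4 hr cultures, PBS being the saline vehicle. The labels spell CKIN and MP only as these letters. Indo cultures received indomethacin, an inhibitor of both cyclooxygenases, and were set against a pool treated with ethanol (the ethanol pool). NS398 cultures received a selective inhibitor of cyclooxygenase-2 and were set against a pool treated with DMSO. Injured 4 hr is the name used here for unpooled PBS-treated cultures at 4 hr, set against the PBS pool of the same kind of tissue. Uninjured is freshly dissected cord, also set against the PBS pool. Every group but Uninjured thus shares the cutting and culture of the cord, and a comparison with Uninjured contains the dissection, the culture and 4 hr of time together. The labels give no strain, sex, age or dose, and nothing in them says that the 3 samples of a group came from separate animals or cultures, so the p-values reflect no more than how far these samples lie apart, which may be technical.

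These kinases turn messages at the cell surface into phosphorylation inside the cell. Calcium bound to calmodulin activates the CaM kinases, diacylglycerol and calcium activate the classical forms of protein kinase C, and cyclic AMP frees the catalytic subunits of protein kinase A from its regulatory subunits. MAP kinases are the last step of a chain in which a MAP3K activates a MAP2K, which activates the MAP kinase, and growth factor, stress and cytokine signals all pass through such chains. In the nervous system CaM kinase II and protein kinase C are known for their abundance at synapses, and the stress-activated MAP kinases for their part in responses to axon damage.

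The 250 bases upstream of the annotated gene start are printed for 4 genes: Prkacb and Map2k2, which were lower in several treatments, and Camk2g and Camk2n2, which had the largest falls after injury. The sequences are from RefSeq on the rat build GRCr8, 5′ to 3′ on the strand of the gene. Capitals mark 3 kinds of match on either strand, the GC box GGGCGG, the core TGACG of the cyclic AMP response element and the CCAAT box. Prkacb lies on the minus strand with its window at chr2:238386316-238386565, Map2k2 on the minus strand at chr7:9260799-9261048, Camk2g on the plus strand at chr15:3553106-3553355 and Camk2n2 on the plus strand at chr11:93793845-93794094.
Prkacb: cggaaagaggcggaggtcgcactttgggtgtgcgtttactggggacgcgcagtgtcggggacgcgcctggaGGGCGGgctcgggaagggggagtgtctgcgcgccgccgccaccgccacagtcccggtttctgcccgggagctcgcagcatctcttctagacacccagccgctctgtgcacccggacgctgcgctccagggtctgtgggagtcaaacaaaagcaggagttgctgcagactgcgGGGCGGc
Map2k2: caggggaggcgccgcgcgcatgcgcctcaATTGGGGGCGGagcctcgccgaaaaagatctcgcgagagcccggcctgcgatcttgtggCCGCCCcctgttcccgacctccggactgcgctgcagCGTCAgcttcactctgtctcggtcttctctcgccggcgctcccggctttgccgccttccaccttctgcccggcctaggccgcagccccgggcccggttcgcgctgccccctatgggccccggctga
Camk2g: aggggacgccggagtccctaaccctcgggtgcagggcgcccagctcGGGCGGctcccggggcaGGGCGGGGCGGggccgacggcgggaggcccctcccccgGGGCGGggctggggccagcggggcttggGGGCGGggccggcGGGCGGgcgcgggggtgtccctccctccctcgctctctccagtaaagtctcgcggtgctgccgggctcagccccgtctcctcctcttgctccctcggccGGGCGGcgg
Camk2n2: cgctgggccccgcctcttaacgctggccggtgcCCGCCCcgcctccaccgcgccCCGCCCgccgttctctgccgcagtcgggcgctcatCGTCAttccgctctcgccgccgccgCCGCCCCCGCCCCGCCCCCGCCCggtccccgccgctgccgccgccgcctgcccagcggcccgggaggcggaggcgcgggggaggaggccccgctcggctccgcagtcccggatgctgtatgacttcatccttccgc

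The windows of Camk2g and Camk2n2 held 7 and 6 GC boxes, against 2 in Prkacb and 2 in Map2k2. A promoter was found for 39 of the 48 genes, and 31 of these 39 windows (79.5%) held a GC box on either strand, against 30.5% of all 33469 rat windows of the same length. TGACG was in 11 of the 39 (28.2%), against 18.2% of all windows. The whole element TGACGTCA, which contains TGACG, was in 1 (2.56%), that of Mapk10, against 1.59% of all. CCAAT was in 8 (20.5%), against 34% of all. The AP-1 site TGANTCA was in 1 of the 39 member windows, that of Map3k8, against 6.34% of all, and TATAAA was in 1, that of Prkcd, against 12.9% of all. The comparison set was all windows of the build, not those of genes on the array, so these shares are not matched by kind of gene. These matches describe the letters in these windows and were not tested against the array values.

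All values below are the deposited log2 ratios minus the median of their array, so that 0 is the middle probe of an array. The direction was taken as the named sample over the pool, which the order of the titles makes likely but does not state. Between 3092 and 4916 probes, and between 30 and 50 of the kinase probes, had a value on an array, and 15 kinase probes had one on all 21. On 10 arrays more than 1100 spots were missing: all CKIN and all Indo arrays, MP 1 and 3, Acet 1 and NS398 1. These are called sparse arrays here, and no Injured 4 hr or Uninjured array is one. The treatment arrays carry another mark, in that 8.08% to 13.2% of their ratios equal, to 4 decimals, a ratio of 2 whole numbers of at most 20, against 0.32% to 1.19% on the 6 Injured 4 hr and Uninjured arrays. The spread over probes (SD) was 0.768 to 0.799 on Injured 4 hr arrays, 0.771 to 1.08 on treatment arrays and 1.39 to 1.47 on Uninjured arrays.

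**Figure D1:**
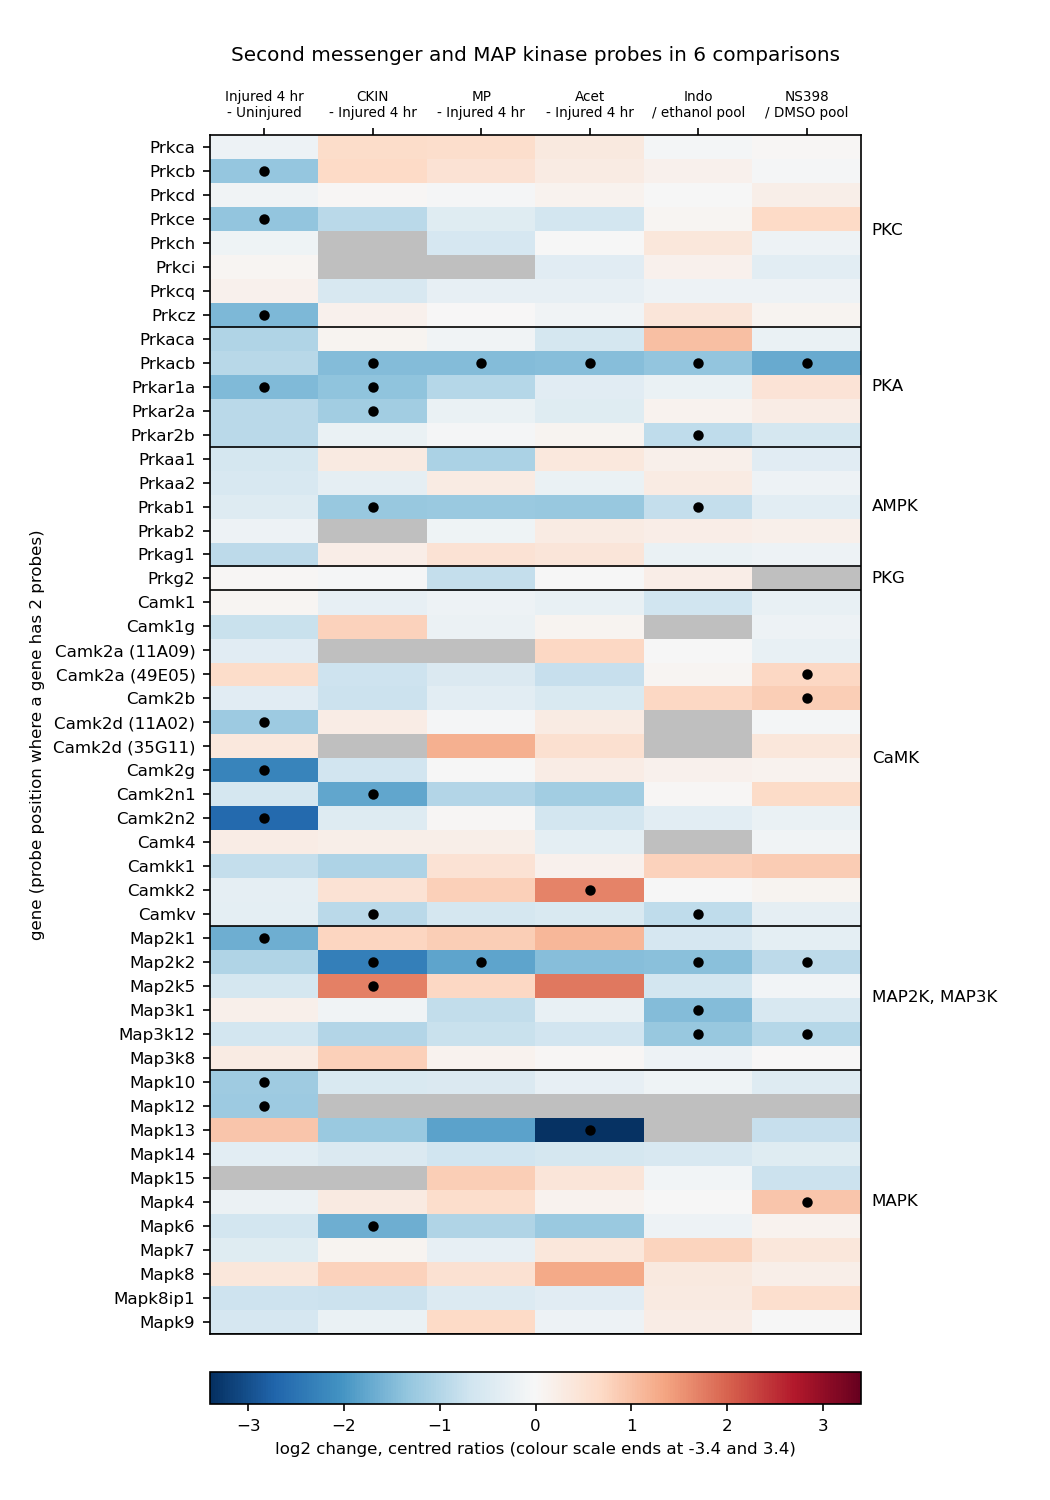
Log2 change of centred ratios for the 50 kinase probes (down the page, by family) in 6 comparisons (across). Red is higher and blue is lower in the first-named group, grey is not tested, and a black dot marks an adjusted p below 0.05 in limma over all probes. Dots after injury are all blue, and Prkacb, the catalytic beta subunit of protein kinase A, has a dot in each of the 5 treatments.

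The first comparison asks what differs between cut and cultured cord at 4 hr and fresh cord. Of the 49 kinase probes tested, 10 (20.4%) were lower in Injured 4 hr than in Uninjured cord and 0 were higher, in limma's moderated test with Benjamini-Hochberg adjustment over 4821 probes. Among all probes 14.3% passed, 13.5% lower and 0.809% higher. The median change of the kinase probes was -0.58, against -0.05 for all probes, and 38 of 49 (77.6%) had a negative change, against 52% of all probes. The probes that passed were Camk2n2, Camk2g, Camk2d, Map2k1, Prkcz, Prkce, Prkcb, Prkar1a, Mapk12 and Mapk10, and for each of them the Injured 4 hr and Uninjured arrays did not overlap. At an unadjusted p below 0.05 still 0 kinase probes were higher.

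**Figure D2:**
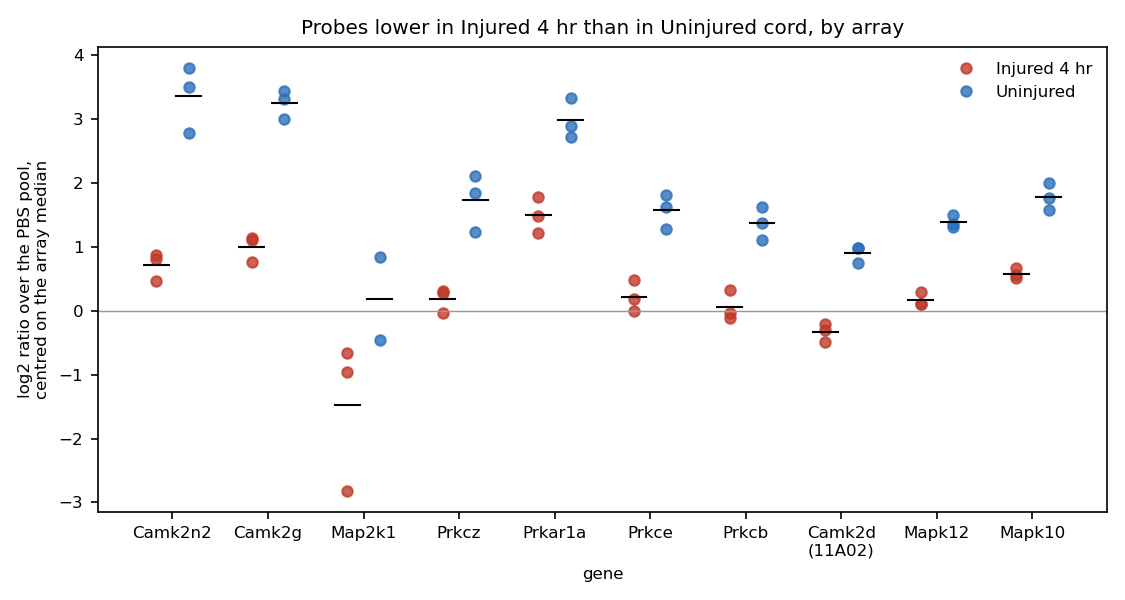
Log2 ratio over the PBS pool, centred on the array median, on each array for the 10 probes lower in Injured 4 hr (red, left of each pair) than in Uninjured (blue, right). Each point is an array and each black line the mean of its group. No pair overlaps, and the widest distances are those of Camk2n2 and Camk2g, with means of 0.72 and 1.01 in Injured 4 hr against 3.36 and 3.25 in Uninjured.

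The largest falls of these kinases were in the CaM kinase II genes. Camk2n2, an endogenous protein inhibitor of CaM kinase II, had log2 ratios of 0.46, 0.81 and 0.87 on the Injured 4 hr arrays, against 3.50, 3.80 and 2.78 on the Uninjured arrays. All Injured 4 hr arrays lay below all Uninjured arrays, and Camk2n2 fell by 2.64 on the log2 scale (SE 0.35, limma adjusted p = 7.92e-05), or 6.24-fold. Camk2g, the gamma subunit of the kinase, had 1.11, 0.77 and 1.13 in Injured 4 hr, against 3.00, 3.44 and 3.32 in Uninjured. It was lower on every Injured 4 hr array and fell by 2.25 (SE 0.27, limma adjusted p = 4.16e-05), or 4.74-fold. Both calls held whichever of the 6 arrays was left out, with changes of -2.93 to -2.42 for Camk2n2 and of -2.37 to -2.13 for Camk2g.

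The delta subunit gene Camk2d was represented by 2 probes that differed. Probe 11A02 had -0.49, -0.21 and -0.30 in Injured 4 hr, against 0.98, 0.75 and 0.99 in Uninjured, and fell by 1.24 (SE 0.36, limma adjusted p = 0.0252). The sign of the ratio differed between the groups on all 6 arrays, but the call was lost without any 1 of them, with a change of -1.31 to -1.16. Probe 35G11 had -0.37, -0.54 and -0.23 in Injured 4 hr, against -0.88, -0.62 and -0.70 in Uninjured, a change of 0.35 (adjusted p = 0.63). The Injured 4 hr arrays of this second probe lay above the Uninjured ones by a small distance that did not pass the test. The alpha subunit gene Camk2a also had probes of opposite sign, 0.62 for 49E05 (adjusted p = 0.318) and -0.39 for 11A09, and neither passed.

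The other calmodulin-dependent kinases gave smaller values. Camk2b, the beta subunit, had a change of -0.39. Camkk1 and Camkk2, the kinases that activate CaM kinases I and IV, had -0.82 and -0.31, Camk1 had 0.07 and Camk4 had 0.25, and none of these passed. Over the 14 probes of this family 10 changes were negative, 3 passed, and the median was -0.39.

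Of 8 protein kinase C probes 3 passed, all lower, and the family median was -0.17. Prkcz, an atypical form that needs neither calcium nor diacylglycerol, had 0.32, 0.28 and -0.03 in Injured 4 hr, against 1.23, 2.11 and 1.84 in Uninjured, and fell by 1.54 (SE 0.41, limma adjusted p = 0.0149). Prkce, which diacylglycerol activates without calcium, had -0.0048, 0.48 and 0.19 in Injured 4 hr, against 1.81, 1.63 and 1.28 in Uninjured, and fell by 1.35 (SE 0.41, adjusted p = 0.0318). Prkcb, a classical form, had -0.04, -0.11 and 0.33 in Injured 4 hr, against 1.62, 1.38 and 1.11 in Uninjured, and fell by 1.31 (SE 0.41, adjusted p = 0.037). In these 3 genes every Uninjured array lay above 1 and every Injured 4 hr array near the array median. Prkca and Prkcd, which are also activated by diacylglycerol, had changes of -0.18 (adjusted p = 0.78) and -0.12 (adjusted p = 0.858). The call was lost for Prkcz without Injured 4 hr 3, Uninjured 2 or Uninjured 3 (-1.79 to -1.35), for Prkce without any array but Uninjured 3 (-1.50 to -1.23), and for Prkcb without any 1 of the 6 (-1.44 to -1.18).

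All 5 protein kinase A probes were negative, with a median of -0.95, and 1 passed. Prkar1a, the type I alpha regulatory subunit, had 1.21, 1.49 and 1.78 in Injured 4 hr, against 2.90, 3.33 and 2.72 in Uninjured, and fell by 1.49 (SE 0.49, limma adjusted p = 0.044). Its Injured 4 hr arrays lay below its Uninjured arrays, and the call was lost without any 1 of the 6 (-1.63 to -1.31). The other members had changes of -1.02 for Prkaca (adjusted p = 0.303) and -0.95 for Prkacb (adjusted p = 0.0679), the catalytic subunits, and of -0.92 for Prkar2b (adjusted p = 0.101) and -0.92 for Prkar2a (adjusted p = 0.126), the type II regulatory subunits. The AMP-activated kinase, a sensor of the cell's energy supply, had 5 negative changes of 5 and a median of -0.54, with -0.61 for Prkaa1 and -0.54 for Prkaa2, its catalytic subunits, and none passed. Prkg2, a kinase activated by cyclic GMP, had 0.03.

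In the MAP kinase chains, 1 of 6 upstream probes and 2 of 10 MAP kinase probes passed. Map2k1, which encodes MEK1, a kinase between RAF and the MAP kinases, had -2.81, -0.96 and -0.65 in Injured 4 hr, against -0.46 on Uninjured 2 and 0.84 on Uninjured 3, with no value on Uninjured 1. It fell by 1.67 (SE 0.51, limma adjusted p = 0.0343), and without Injured 4 hr 1, by far the lowest array, the change was -1.0 and the call was lost. Injured 4 hr averaged -1.48 for Map2k1 over the PBS pool of like RNA, and Uninjured averaged 0.19 over the same pool. The part of that Injured 4 hr offset in the fall was not tested. Mapk12, a p38 form best known from muscle, had 0.10, 0.29 and 0.11 in Injured 4 hr, against 1.36, 1.50 and 1.31 in Uninjured (-1.22, SE 0.33, adjusted p = 0.028). Mapk10, a JNK form expressed mainly in the nervous system, had 0.66, 0.56 and 0.51 in Injured 4 hr, against 1.57, 2.00 and 1.77 in Uninjured (-1.20, SE 0.39, adjusted p = 0.0434). The 2 MAP kinases were separated on all arrays with narrow spreads, yet both calls were lost without any 1 of the 6, at -1.28 to -1.17 for Mapk12 and -1.31 to -1.09 for Mapk10. The other JNK genes, Mapk8 and Mapk9, had changes of 0.37 and -0.58, the p38 gene Mapk14 had -0.36, and Map2k2, which encodes MEK2, had -1.02 (adjusted p = 0.115). Map3k1, a MAP3K above JNK, had 0.18.

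Markers of neurons and astrocytes moved with these kinases. Of 20 neuron marker probes tested, 14 were lower in Injured 4 hr, with a median change of -1.95 and summed linear ratios of 57.5 to 63.8 in Injured 4 hr against 235 to 269 in Uninjured. Of 14 astrocyte probes 9 were lower (median -1.94, sums of 30.0 to 36.5 against 110 to 129). Of 11 oligodendrocyte and myelin probes 2 were lower (median -1.29, sums of 32.5 to 35.9 against 68.7 to 71.2). Of all probes 13.5% were lower. A probe without a value on an array drops out of the sum of that array. None of 9 microglia and macrophage probes passed (median 0.31, sums of 18.4 to 19.3 against 19.7 to 21.6), nor did any of 11 blood or 17 connective tissue probes. Neuron and glial markers had values in every group, but ratios cannot show whether a marker is near 0 in either channel. In such bulk samples fewer cells of a type and less RNA per cell cannot be told apart, and the part of cell make-up in the kinase changes was not tested.

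The size and the call of most injury changes depended on scaling. With each array's spread brought to the same size, by scale or by quantile normalization, 0 of the 10 probes passed, and the changes of Camk2g were -0.58 and -0.85 and those of Camk2n2 were -1.02 and -1.08. Corrected ratios had a curve on the mean Injured 4 hr ratio, and the median of each printing plate, taken out. That mean is 1 arm of this contrast and of each treatment against Injured 4 hr. The correction thus also takes out any change that scales with it and draws the Injured 4 hr values towards 0. In these contrasts a call lost, kept or gained in corrected ratios therefore says nothing about stability. In corrected ratios 3 of the 10 passed, Camk2n2 at -1.89 (limma adjusted p = 0.00417), Camk2d probe 11A02 at -1.34 (adjusted p = 0.0213) and Camk2g at -1.15 (adjusted p = 0.00264). Corrected ratios also called Prkar2b lower at -1.13 (adjusted p = 0.0318) and Camk2a probe 49E05 higher at 1.30 (adjusted p = 0.0457). In ratios left uncentred the median of all probes lay at 1.47, and the family medians lay between 0.58 for protein kinase A and 1.56 for protein kinase G. The protein kinase A median was negative in centred, scaled (-0.48), quantile (-0.32) and corrected (-0.72) ratios, whereas the MAP kinase median of -0.50 was 0.11 in corrected ratios.

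**Figure D3:**
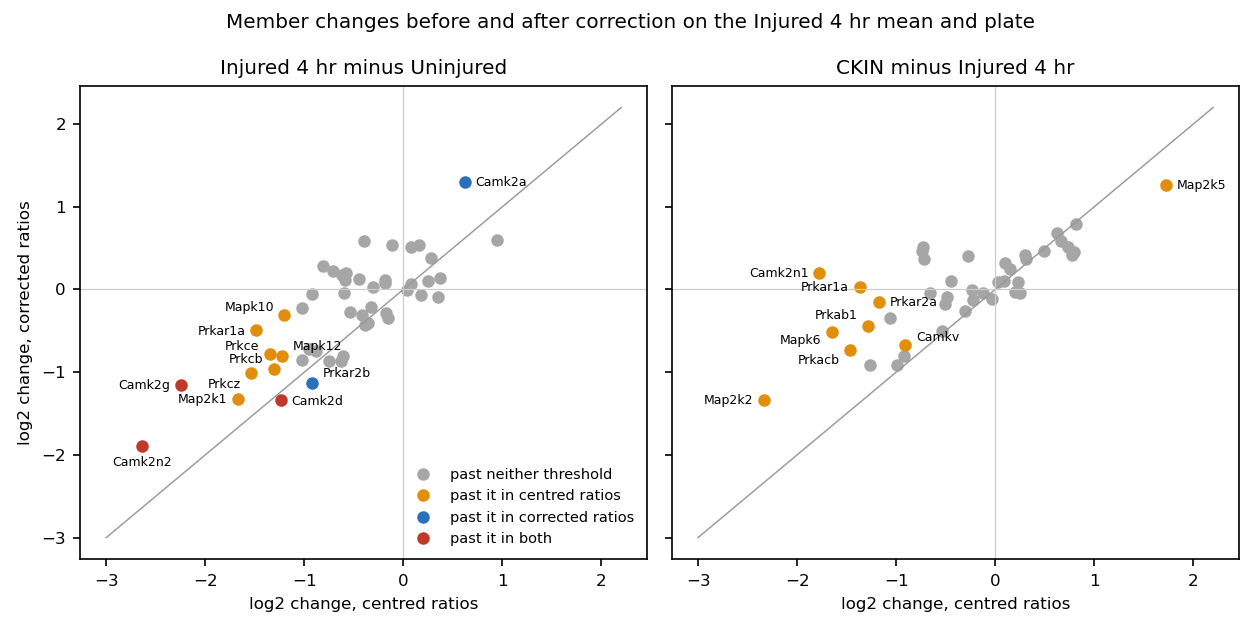
Log2 change of each tested kinase probe in centred ratios (x axis) and in ratios after a curve on the mean Injured 4 hr ratio and the printing plate medians were taken out (y axis), for Injured 4 hr minus Uninjured (left) and CKIN minus Injured 4 hr (right). The diagonal marks equal values, and colours show which of the 2 settings passed an adjusted p of 0.05. After injury Camk2n2, Camk2g and Camk2d (probe 11A02) passed in both, while in CKIN no probe passed after correction, which is fitted on 1 arm of both contrasts.

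The next comparisons ask what each of 3 treatments changed in cultures at 4 hr. CKIN, MP and Acet were each set against the same 3 Injured 4 hr arrays, so their changes share those arrays and are given side by side with no count of their overlap. In CKIN 9 of 43 kinase probes (20.9%) passed, 8 lower and 1 higher, while 20% of 3735 probes passed, 18.6% lower and 1.47% higher. In MP 2 of 47 (4.26%) passed, both lower, while 2.05% of 4390 probes passed, 2% lower and 0.0456% higher. In Acet 3 of 49 (6.12%) passed, 2 lower and 1 higher, while 1.31% of 4733 probes passed, 1.2% lower and 0.106% higher. The kinase medians were -0.28, -0.18 and -0.17 in CKIN, MP and Acet, against -0.38, -0.27 and -0.21 for all probes. The share of the kinase probes that passed in CKIN was thus near that of all probes.

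Prkacb was lower in all 3 treatments. It had -1.63, -0.90 and -1.55 in CKIN, -1.72, -1.16 and -1.22 in MP, and -2.01, -0.65 and -1.40 in Acet, against 0.11, 0.05 and 0.15 in Injured 4 hr. Every treatment array lay below every Injured 4 hr array, and the Injured 4 hr arrays lay close together just above their median. The falls were by 1.46 in CKIN (SE 0.35, limma adjusted p = 0.00925), by 1.47 in MP (SE 0.35, adjusted p = 0.0302) and by 1.46 in Acet (SE 0.35, adjusted p = 0.043). The CKIN call held whichever array was left out. The MP call was lost without any array but MP 2 (-1.57 to -1.30) and with only the compared groups in the fit (adjusted p = 0.0544), and the Acet call without any array but Acet 2 (-1.81 to -1.13). In corrected ratios the changes were -0.73 (adjusted p = 0.213), -1.0 (adjusted p = 0.0989) and -0.90 (adjusted p = 0.163) in CKIN, MP and Acet.

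Map2k2, the gene of MEK2, was lower in CKIN and MP. It had -1.79, -1.38 and -2.17 in CKIN, -1.27, -0.85 and -1.58 in MP, and -1.86, -0.17 and -0.64 in Acet, against 0.20, 0.87 and 0.58 in Injured 4 hr. All 9 treatment arrays lay below the Injured 4 hr arrays, with Acet 2 the nearest. It fell by 2.33 in CKIN (SE 0.43, limma adjusted p = 0.00314) and by 1.79 in MP (SE 0.43, adjusted p = 0.0312), and the change in Acet was -1.45 (adjusted p = 0.09). The CKIN call held whichever array was left out, and the MP call was lost without any array but MP 2 (-1.98 to -1.61). In corrected ratios the changes were -1.34 in CKIN (adjusted p = 0.0621) and -1.29 in MP (adjusted p = 0.0591).

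**Figure D4:**
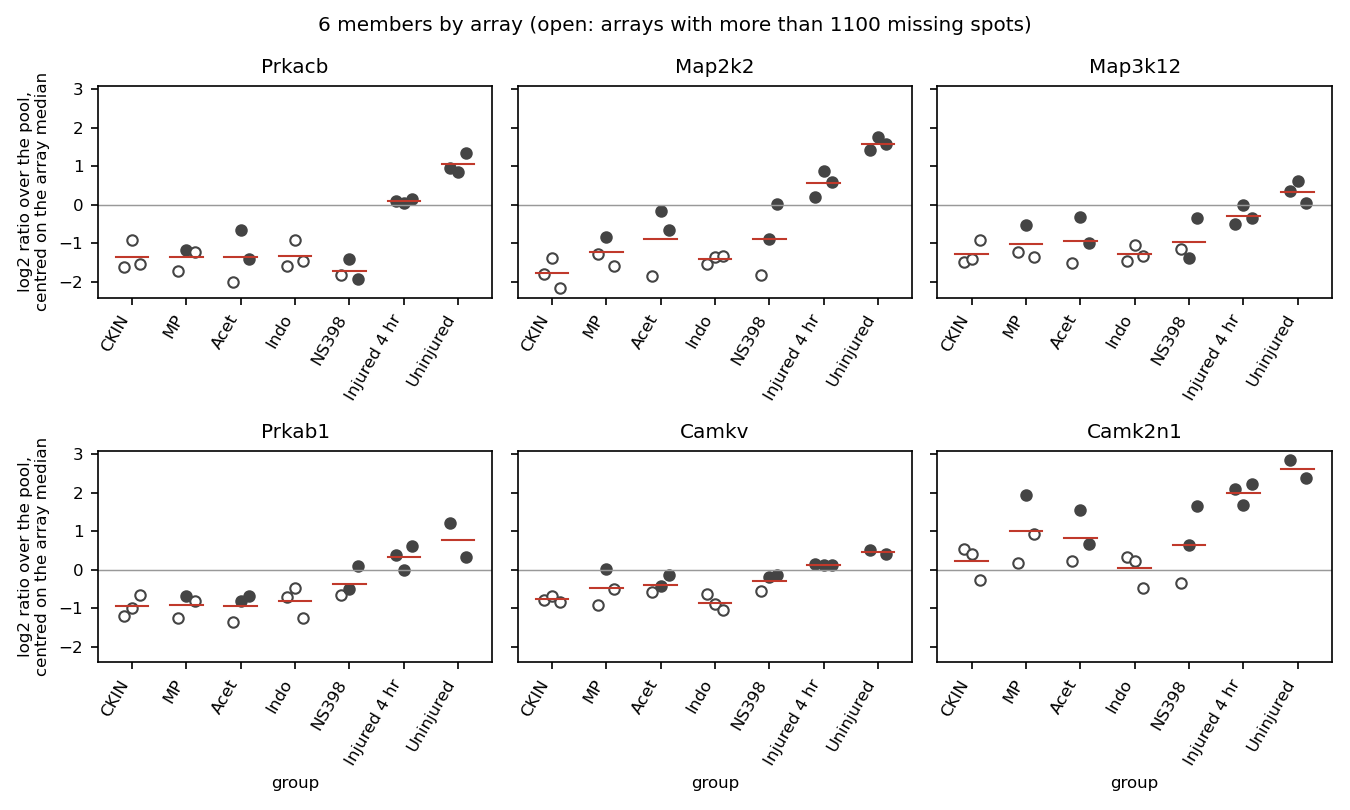
Log2 ratio over the pool, centred on the array median, on each array of the 7 groups for Prkacb, Map2k2, Map3k12, Prkab1, Camkv and Camk2n1. Each circle is an array, open where more than 1100 spots were missing, and each red line the mean of its group. Prkacb lies below 0 on all 15 treatment arrays, with group means of -1.36, -1.37, -1.35, -1.33 and -1.72 in CKIN, MP, Acet, Indo and NS398, against 0.10 in Injured 4 hr and 1.05 in Uninjured.

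Further members were lower in CKIN than in Injured 4 hr. Mapk6, which encodes the atypical MAP kinase ERK3, had -0.37, -0.23 and -0.25 in CKIN, against 1.40, 1.63 and 1.09 in Injured 4 hr, and fell by 1.65 (SE 0.34, limma adjusted p = 0.00564). The CKIN arrays of Mapk6 lay together below the median and far from the Injured 4 hr arrays, and the call held whichever array was left out. Over the PBS pool itself, however, CKIN averaged -0.28 (adjusted p = 0.501 against 0), while Injured 4 hr averaged 1.37 over a pool of like RNA, so the call was lost against the pool. The changes of Mapk6 were -1.02 in MP and -1.26 in Acet (adjusted p = 0.0661), and in corrected ratios -0.51 in CKIN.

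Camk2n1, the second inhibitor of CaM kinase II, had 0.55, 0.39 and -0.28 in CKIN, against 2.10, 1.67 and 2.22 in Injured 4 hr, and fell by 1.78 (SE 0.48, limma adjusted p = 0.0185). The groups did not overlap, but the call was lost without CKIN 3, Injured 4 hr 1 or Injured 4 hr 3 (-1.94 to -1.53), and the change was 0.20 in corrected ratios and 0.22 over the PBS pool, both of the opposite sign. Camkv, a kinase-like protein of vesicles thought to lack kinase activity, had -0.80, -0.68 and -0.85 in CKIN, against 0.14, 0.12 and 0.12 in Injured 4 hr, and fell by 0.91 (SE 0.30, adjusted p = 0.0413). Both groups of Camkv were tight and apart, and the call was lost without any 1 of the 6 arrays (-0.96 to -0.87).

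Of the 3 regulatory subunit probes of protein kinase A, Prkar1a and Prkar2a were lower in CKIN, and Prkar2b had a change of -0.23 (adjusted p = 0.727). Prkar1a had 0.26, 0.61 and -0.51 in CKIN, against 1.21, 1.49 and 1.78 in Injured 4 hr, and fell by 1.37 (SE 0.49, limma adjusted p = 0.0487). Prkar2a had -0.34, 0.08 and -0.04 in CKIN, against 1.36, 0.29 and 1.56 in Injured 4 hr, and fell by 1.17 (SE 0.40, adjusted p = 0.042). The groups did not overlap in either gene, although Injured 4 hr 2 of Prkar2a lay near the CKIN arrays. The call was lost for Prkar1a without any array but CKIN 2 (-1.61 to -1.06), and for Prkar2a without CKIN 1, CKIN 3, Injured 4 hr 1 or Injured 4 hr 3 (-1.56 to -0.93 over all 6 omissions). Over the PBS pool itself CKIN averaged 0.12 for Prkar1a (adjusted p = 0.865 against 0) and -0.10 for Prkar2a (adjusted p = 0.865), while Injured 4 hr averaged 1.49 and 1.07 over a pool of like RNA, and corrected changes were 0.028 and -0.15. The direction for Prkar1a thus turned in both, and neither call held there. The median of the 5 protein kinase A probes in CKIN was -1.17, of which 3 passed, and it was -0.13 in corrected ratios and 0.75 in uncentred ratios, where the median of all probes lay at 1.54.

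Prkab1, a scaffold subunit of the AMP-activated kinase, had -1.20, -1.01 and -0.66 in CKIN, -1.26, -0.69 and -0.82 in MP, and -1.36, -0.82 and -0.68 in Acet, against 0.37, -0.01 and 0.63 in Injured 4 hr. Each treatment lay below every Injured 4 hr array. It fell by 1.28 in CKIN (SE 0.35, limma adjusted p = 0.0189), with changes of -1.25 in MP (adjusted p = 0.0651) and -1.28 in Acet (adjusted p = 0.067). The CKIN call was lost without Injured 4 hr 1 or 3 (-1.45 to -1.13). Prkaa1 and Prkaa2, the catalytic subunits, had 0.30 and -0.31 in CKIN, -1.08 and 0.27 in MP, and 0.35 and -0.23 in Acet, and none passed.

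Map2k5, the activator of the MAP kinase ERK5, was the single kinase probe higher in CKIN. It had 0.49 on CKIN 1 and -0.57 on CKIN 2, with no value on CKIN 3, against -2.56, -1.89 and -0.84 in Injured 4 hr, a rise of 1.73 (SE 0.57, limma adjusted p = 0.0407). The 2 CKIN arrays lay above the Injured 4 hr arrays, with Injured 4 hr 3 close to CKIN 2. The call was lost without Injured 4 hr 1 or 2 or with CKIN 3 left out, which holds no Map2k5 value itself, with changes of 1.33, 1.67 and 1.73, and it was kept at 2.19 without Injured 4 hr 3. The change was 1.79 in Acet (adjusted p = 0.085). The ratio of Map2k5 in Injured 4 hr against its own PBS pool was -1.76 on average, and the mean of the 2 CKIN arrays over that pool was -0.04.

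The other calls in Acet were a rise and a fall. Camkk2, which activates CaM kinases and the AMP-activated kinase, had 1.79, 1.80 and 1.77 in Acet, against 0.03, 0.27 and -0.03 in Injured 4 hr, and rose by 1.70 (SE 0.42, limma adjusted p = 0.0472). The Acet arrays lay close to each other and apart from Injured 4 hr, and the call was lost without any 1 of the 6 arrays (1.64 to 1.79). Mapk13, a p38 form, had -1.98 on Acet 2 and -5.22 on Acet 3, with no value on Acet 1, against -0.24, 0.10 and -0.60 in Injured 4 hr, and fell by 3.35 (SE 0.69, adjusted p = 0.0312). The 2 Acet arrays were far from each other, and the call was lost in each of the 4 omissions that could be tested, those of Injured 4 hr 1, 2 and 3 and of Acet 1 (-3.53 to -3.18). Corrected changes were 1.77 for Camkk2 (adjusted p = 0.06) and -3.03 for Mapk13 (adjusted p = 0.0981).

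Other members called after injury did not pass in these treatments. Camk2g had -0.66 in CKIN and 0.26 in Acet, Prkcb had 0.67, 0.49 and 0.28 and Prkcz had 0.15, 0.01 and -0.12 in CKIN, MP and Acet, and none passed. Prkce had -0.92, -0.42 and -0.62, Mapk10 had -0.51, -0.49 and -0.28, and Map2k1 had 0.73, 0.83 and 1.12 in the same order, and none passed. Mapk8, which was not called after injury, had 0.78, 0.51 and 1.30, again with no call. Not tested for want of values were 7 probes in CKIN, 3 in MP and 1 in Acet, among them Mapk12, which had a value on fewer than 2 arrays of every treatment group.

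In these 3 comparisons the treatment arrays differ from Injured 4 hr arrays also in how their files look, since only treatment arrays carry the mark of whole-number ratios. Treatment and that mark cannot be told apart. The array set was whether an array is sparse. All CKIN arrays were sparse and no Injured 4 hr array was, so it splits these groups exactly. As a block it could be estimated only from MP, Acet and NS398, which hold both kinds of array. In that fit 0 kinase probes passed in CKIN, with changes of -1.19 for Map2k2 (limma adjusted p = 0.219) and -0.98 for Prkacb (adjusted p = 0.333). A call lost there does not tell CKIN from sparseness. In MP the block gave -1.02 for Map2k2 (adjusted p = 0.224) and -1.15 for Prkacb (adjusted p = 0.166), and in Acet -1.30 for Prkacb (adjusted p = 0.0529), which ended that call and left 2 of 3. Of the markers 4 of 19 neuron, 4 of 13 astrocyte, 6 of 11 oligodendrocyte and 2 of 7 microglia probes were lower in CKIN. Connective tissue had 1 of 10 lower and blood 0 of 6, while 18.6% of all probes were lower. The neuron share was near that of all probes, and the connective tissue and blood shares were below it. The oligodendrocyte sums were 9.08 to 12.6 in CKIN against 32.5 to 35.9 in Injured 4 hr. A probe without a value on an array drops out of its sum, so sums of sparse and other arrays may cover different probes. Injured 4 hr over the PBS pool of like RNA had 18 of 20 neuron, 7 of 14 astrocyte and 9 of 11 oligodendrocyte probes higher. Their medians there were 1.52, 0.73 and 1.69, and 0 of these probes were lower. Of all probes 20.9% were higher there. Oligodendrocyte array medians in CKIN over that pool were -0.26 to 0.20. The part of this offset in the CKIN marker falls was not tested. In MP none of 78 marker probes passed in limma, with 15 at an unadjusted p below 0.05, where 770 of all 4390 probes had one. In Acet 2 of 17 connective tissue probes were lower, Col1a1 and Col1a2, against 1.2% of all probes lower. The part of these in the kinase changes was not tested.

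Indo and NS398 were each compared with their own vehicle pool, in which a ratio of 0 means no difference and the pool counts as 1 control sample without its own spread. A rough background for such a test is given by the Injured 4 hr arrays, on which PBS-treated cultures were set against a pool of PBS-treated cultures. There 12 of 50 kinase probes (24%) passed, 10 higher and 2 lower, and 22% of all 4864 probes, 20.9% higher and 1.09% lower. The higher ones were led by Camk2n1 at 2.00, Camk2b at 1.85 and Prkar1a at 1.49, and the lower ones were Map2k5 at -1.76 and Map2k1 at -1.48. A probe thus passed a test against 0 between like RNAs about as often as in NS398.

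In Indo 7 of 44 kinase probes (15.9%) passed, all lower, while 13.3% of 3802 probes passed, 10.7% lower and 2.6% higher. The median of the kinase probes was -0.01, against 0.02 for all probes. The cascade above the MAP kinases had 6 of 6 probes negative, against 48.6% of all probes, with 3 passing and a median of -0.96. In corrected ratios 4 were negative, 3 passed and the median was -0.46. In Injured 4 hr over its PBS pool 2 of these 6 probes were lower, Map2k5 at -1.76 and Map2k1 at -1.48, and the median was -0.28. Map2k5 and Map2k1 averaged -0.64 and -0.58 in Indo. Map3k1 had -1.11, -2.39 and -0.91 in Indo and fell by 1.47 (SE 0.29, limma adjusted p = 0.00104), against -0.28 in Injured 4 hr over its PBS pool. Map2k2 had -1.55, -1.37 and -1.32 in Indo and fell by 1.41 (SE 0.30, adjusted p = 0.00204), against 0.55 in Injured 4 hr. Map3k12, the dual leucine zipper kinase of neuronal stress signalling, had -1.46, -1.04 and -1.33 in Indo and fell by 1.28 (SE 0.26, adjusted p = 0.00121), against -0.28 in Injured 4 hr. All 3 arrays were below 0 for each of these genes, and the calls held without any 1 array.

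Prkacb was again lower in Indo, at -1.60, -0.93 and -1.46 and fell by 1.33 (SE 0.25, limma adjusted p = 0.000566), against 0.10 in Injured 4 hr over its pool, and this call too held without any 1 array. Prkar2b, a regulatory subunit of protein kinase A, had -1.01, -0.79 and -0.82 in Indo (-0.87, SE 0.27, adjusted p = 0.0309), Camkv had -0.64, -0.91 and -1.05 (-0.86, SE 0.21, adjusted p = 0.00754) and Prkab1 had -0.72, -0.48 and -1.26 (-0.82, SE 0.25, adjusted p = 0.0308). All their arrays were below 0, and Injured 4 hr arrays over their pool averaged -0.24, 0.13 and 0.33 for the same genes. The call was lost without any 1 array for Prkar2b (-0.91 to -0.81), without Indo 3 for Camkv (-0.98 to -0.77), and without Indo 1 or 3 for Prkab1 (-0.99 to -0.60). In corrected ratios 5 of the 7 passed, at -0.96 for Map3k1, -1.09 for Map2k2, -0.78 for Prkacb, -0.76 for Map3k12 and -0.90 for Camkv, and the changes of Prkar2b and Prkab1 were -0.37 and -0.41. Prkaca had a mean of 1.01 (adjusted p = 0.141), with 1 array, Indo 1, at 3.19. All Indo arrays were sparse. Of the markers 1 of 19 neuron probes, Nefl, and 1 of 8 blood probes were higher, and 1 of 13 connective tissue probes was lower. Of all probes 2.6% were higher and 10.7% lower. Nefl was at 1.71 in Indo and at 2.90 in Injured 4 hr over its pool, and the blood probe, Hba-a1, at 1.22 and 2.70.

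In NS398 6 of 48 kinase probes (12.5%) passed, 3 higher and 3 lower, while 22% of 4485 probes passed, 10.7% higher and 11.3% lower. Prkacb had -1.82, -1.40 and -1.94 in NS398, the lowest group mean of the study for this probe, and fell by 1.72 (SE 0.25, limma adjusted p = 6.02e-05). All 3 arrays were far below 0, the call held without any 1 of them, and the corrected change was -1.45 (adjusted p = 0.000124). Map3k12 had -1.14, -1.40 and -0.35 (-0.96, SE 0.26, adjusted p = 0.0103), lost without NS398 2 and at -0.54 in corrected ratios. Map2k2 had -1.84, -0.89 and 0.01 (-0.90, SE 0.30, adjusted p = 0.0362), so that NS398 3 lay at 0, and the call was lost without NS398 1 or 2 (-1.36 to -0.44).

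The 3 higher probes in NS398 had changes under 1. Mapk4, an atypical MAP kinase related to Mapk6, had 0.81 on NS398 2 and 1.09 on NS398 3, with no value on NS398 1, and rose by 0.95 (SE 0.31, limma adjusted p = 0.0352), against 0.09 in Injured 4 hr. Camk2b had -0.05, 1.02 and 1.51 (0.83, SE 0.28, adjusted p = 0.0347), and Camk2a probe 49E05 had 0.46, 0.68 and 1.00 (0.72, SE 0.25, adjusted p = 0.0465). Injured 4 hr arrays over their own pool gave 1.85 for Camk2b and 0.73 for this Camk2a probe, at or above the NS398 values. The Camk2b call was lost without NS398 2 or 3 (0.49 to 1.27) and its corrected change was -0.24, and the Camk2a call was lost without any 1 array (0.57 to 0.84), with a corrected change of 0.45. Corrected ratios also called Mapk10 at -0.89 (adjusted p = 0.0127) and Mapk6 at -0.67 (adjusted p = 0.0493) lower, and still called Map2k2 at -0.91 and Mapk4 at 0.99. With only the compared groups in the fit 1 of the 6 calls held, that of Prkacb, and those of Mapk4 (adjusted p = 0.212) and Map2k2 (adjusted p = 0.222) were lost, and with the replicate number as a block Mapk4 was at 0.85 (adjusted p = 0.0682). Markers higher in NS398 were 1 of 20 neuron, 2 of 14 astrocyte, 2 of 11 oligodendrocyte and 3 of 9 microglia probes. Of 9 blood probes 4 were higher, and of 16 connective tissue probes 4 were higher and 1 lower. Of all probes 10.7% were higher and 11.3% lower. Injured 4 hr over its PBS pool had 18 of 20 neuron, 7 of 14 astrocyte and 9 of 11 oligodendrocyte probes higher. Of 9 microglia probes 4, of 11 blood probes 3 and of 17 connective tissue probes 3 were higher there. No marker probe was lower there. Of all probes 20.9% were higher there.

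The treatments that share the PBS pool were set against each other without the Injured 4 hr arrays, in 3 pairs. No kinase probe passed of 43 in MP minus CKIN, 43 in Acet minus CKIN and 47 in Acet minus MP, with limma's adjusted p over all probes. In each pair 5 kinase probes had an unadjusted p below 0.05. Of all probes 552 of 3632, 655 of 3749 and 275 of 4378 had one, in the same order. Among all probes 0% passed in MP minus CKIN, 0.16% in Acet minus CKIN (0.133% higher and 0.0267% lower) and 0.0228% in Acet minus MP. For Prkacb the differences were -0.01 in MP minus CKIN (95% interval -0.73 to 0.72), 0.00 in Acet minus CKIN (-0.72 to 0.73) and 0.01 in Acet minus MP (-0.71 to 0.74), so a difference of up to about 0.7 in either direction lies within these intervals. For Map2k2 they were 0.54 (-0.34 to 1.43), 0.89 (0.00 to 1.77) and 0.34 (-0.55 to 1.23). Camkk2 was 1.20 higher in Acet than in CKIN (0.33 to 2.08, adjusted p = 0.171), Camkk1 1.54 higher in MP than in CKIN (0.59 to 2.49, adjusted p = 0.145) and Mapk13 -2.09 in Acet minus CKIN (adjusted p = 0.181). The median distance between a difference and the end of its 95% interval was 0.845, 0.846 and 0.821 in the 3 pairs.

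Genes around the kinases were read from 6 lists of the same pathways. After injury 5 of 15 probes of RAF, RAS and adaptor genes above ERK were lower in Injured 4 hr (median -1.23), against 13.5% of all probes lower, led by Araf, a RAF kinase, at -2.09 and Rasgrf1, a calcium-regulated activator of RAS, at -2.04. Of 26 calmodulin, calcium store and calcineurin probes 9 were lower (median -0.78), led by Ppp3r1 and Ppp3cb, subunits of the phosphatase calcineurin, at -2.51 and -1.65, and by the calmodulin gene Calm2 at -1.64. Of 28 cyclic AMP probes 3 were lower, among them Akap12 (probe 38D03), an anchor of protein kinase A, at -1.68. The others were the phosphatase inhibitors Ppp1r1a and Ppp1r1b at -1.67 and -1.60, and another Akap12 probe, 51A02, did not pass. Of 22 probes of phospholipase C, diacylglycerol kinases and protein kinase C substrates 4 were lower, among them Gap43 at -1.46. The shares of these last 2 lists are near that of all probes. Dusp1, a phosphatase that switches MAP kinases off, rose by 1.60 (limma adjusted p = 0.00507), the 1 call among 9 phosphatase probes. Injured 4 hr lay at 1.39 for Dusp1 over the PBS pool of like RNA, and the part of that offset in the rise was not tested. Of 16 probes downstream of the MAP kinases Atf3, a stress-induced transcription factor, rose by 2.17 and Atf2 (probe 7E11) fell by 1.09.

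The same lists in CKIN had 7 of 14 RAF, RAS and adaptor probes lower (median -1.19), against 18.6% of all probes lower, with the 14-3-3 genes Ywhah at -1.79 and Ywhae at -1.55 and the small GTPase gene Rap1b at -1.74. Downstream of the MAP kinases 4 of 14 were lower, including Junb at -1.87 and 2 probes of Atf4 at -1.83 and -1.48, and 1 of 8 phosphatase probes, Dusp1, was lower at -1.07. Lower too were 6 of 16 probes of the phospholipase C list, led by Marcksl1 at -1.74, 4 of 23 of the calmodulin list, led by Pcp4 at -1.41, and 2 of 21 of the cyclic AMP list, Rapgef4 at -1.72 and Akap1 at -1.31, the last 2 and that of the phosphatases being below the share of all probes. In Injured 4 hr over the PBS pool of like RNA 10 of 15 RAF, RAS and adaptor probes were higher and 0 lower (median 1.03). Of all probes 20.9% were higher there. Higher there too were 6 of 16 downstream, 9 of 22 phospholipase C (1 lower) and 11 of 26 calmodulin probes. Ywhah lay at 2.08, Ywhae at 1.90, Atf4 probe 7D01 at 1.63 and Marcksl1 at 1.95 over that pool. The part of this offset in the CKIN falls was not tested. In MP and in Acet 0 probes of the 6 lists passed limma's adjusted p of 0.05. Counted list by list 10 of 110 in MP and 10 of 112 in Acet had an unadjusted p below 0.05. Of all probes 770 of 4390 in MP and 635 of 4733 in Acet had one.

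In Indo, where 2.6% of all probes were higher and 10.7% lower, Dusp1 was higher at 1.01, 1 of 7 phosphatase probes, and of 13 downstream probes Ddit3 at 1.09 and Atf3 at 0.97 were higher and Myc at -1.68 was lower. The cyclic AMP list had 2 of 23 lower in Indo, Akap1 at -1.95 and Creb1, the cyclic AMP responsive transcription factor, at -0.90, and no probe passed in the RAF, calmodulin and phospholipase C lists. In NS398, where 10.7% of all probes were higher and 11.3% lower, 7 of 14 downstream probes were higher, with Atf3 at 1.93, Atf2 (probe 52G09) at 1.79 and the immediate early gene Egr1 at 1.52. Of 8 phosphatase and feedback probes 3 were higher, Dusp1 at 1.83, the feedback inhibitor Errfi1 at 1.73 and the phosphatase Ptprr at 0.86, and 1 was lower. The phospholipase C list had 6 of 20 higher and 2 lower, the calmodulin list 3 of 23 higher and 1 lower, the cyclic AMP list 1 of 26 higher and 1 lower (Akap1 at -1.49), and none of 14 RAF probes passed. The like-RNA background, Injured 4 hr over its PBS pool, had Dusp1 at 1.39, Errfi1 at 1.51, Egr1 at 1.37 and Ddit3 at 1.32. Of 16 downstream probes 6 were higher there and 0 lower, and of 9 phosphatase probes 2 were higher and 1 lower. Of 22 phospholipase C probes 9 were higher and 1 lower, and of 26 calmodulin probes 11 and 0. Of 28 cyclic AMP probes 2 were higher there and 0 lower. The Indo and NS398 calls were tested against 0 and not against that background.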

How the data were processed

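The authors deposited 1 log2 ratio per spot and array, with array medians that ran from -4.12 to 0.70. The base of the log was read from the values. Dyes, scanner, normalization, spot filter and upstream software were not stated in the labels or file headers, and no intensities were used, so the number of arrays (3 a group) limits the precision. The ratios were centred on each array's median, the 53 Gapdh spots were averaged, and probes were named from the platform annotation, in which 4375 of 4423 single symbols were found by gene identifier. All 21 arrays entered 1 fit in limma 3.58.1 (R 4.3.3) with 1 coefficient per group. Testing required values on 2 or more of the 3 arrays in both groups compared, and was 2-sided, with Benjamini-Hochberg adjusted p below 0.05 over all probes tested. Indo, NS398 and Injured 4 hr against their pools were tested against 0. The script was tested on simulated data with the residual spread and missing spots of these arrays. Only a small part of the probes was changed, and each probe had the same SD in every group. Recovery in the real comparisons may therefore differ. A log2 change of 1 was recovered in 13.5% of probes after injury, 26.2% in CKIN, 8.99% in MP and 10.4% in Acet. In Indo and NS398 it was recovered in 50% and 37.2%. Changes of 2 were recovered in 60.5% (MP) to 96% (Indo). A probe that did not pass may therefore still differ.

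Alternatives were ratios as deposited, quantile and scale normalization, ratios corrected by loess (span 0.4) on the mean Injured 4 hr ratio (a rough stand-in for brightness that is itself an arm of the contrasts with Injured 4 hr) and by the median of plates with 20 or more probes, values on all 3 arrays, only the compared groups in the fit, the array set (sparse or not) or the replicate number as a block, a test against 0, and leaving out each array. Probes named in the text are the members that passed, up to 15 a comparison, a panel of well-known kinases, and up to 3 passing probes per pathway list, with other values given for comparison. The members and lists were chosen with earlier results of these data known, and support nothing by their choice.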

Additional observations from a re-analysis of the deposited data

How the results depend on the processing

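Counts of kinase probes that passed moved with scaling and with single arrays. Leaving out 1 array gave 2 to 4 calls after injury (10 with all arrays), 3 to 7 in CKIN (9), 0 to 8 in MP (2, with 8 without MP 2), 0 to 2 in Acet (3), 4 to 8 in Indo (7), 1 to 6 in NS398 (6), 7 to 10 in Injured 4 hr against the PBS pool (12), 0 to 1 in Acet minus MP (0), and 0 in MP minus CKIN and Acet minus CKIN. Quantile normalization gave 0 calls after injury, 1 in MP and 5 in Acet. Scale normalization gave 0 after injury, 14 in CKIN, 6 in MP and 10 in Acet. Corrected ratios gave 5 after injury and 0 in CKIN, MP and Acet. A fit of only the compared groups gave 18 after injury, 1 in MP, 4 in Indo and 1 in NS398. The array set as a block gave 0 in CKIN and MP, and the test against 0 gave 20 in MP and 11 in Acet. Corrected ratios were not run for Injured 4 hr against the PBS pool, where they are 0 by construction, nor the array set for tests against 0.

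Ratios left uncentred shifted the median of all probes by 1.47 after injury, 1.54 in CKIN, 1.67 in MP, 1.64 in Acet, -0.03 in Indo, -0.98 in NS398 and -2.25 in Injured 4 hr against the PBS pool, and gave 16, 30, 34, 38, 4, 20 and 48 kinase calls in the same order. Signs turned in uncentred ratios after injury for Prkce (0.18), Camk2d probe 11A02 (0.29), Prkcb (0.22), Mapk12 (0.30), Mapk10 (0.32) and Prkar1a (0.038), and for Prkar1a also under scale normalization (0.25). They turned in CKIN for Mapk6 (0.27), Camkv (1.02), Prkab1 (0.64), Prkacb (0.46), Prkar2a (0.75), Prkar1a (0.56) and Camk2n1 (0.15), in MP for Map2k2 (0.20) and Prkacb (0.51), in Acet for Prkacb (0.47), and in NS398 for Camk2b (-0.063), Mapk4 (-0.31) and Camk2a probe 49E05 (-0.18). In Injured 4 hr against the PBS pool they turned for Camkk1 (-1.07), Camk2g (-1.20), Camk2b (-0.36), Mapk6 (-0.83), Prkar2a (-1.13), Prkar1a (-0.71), Camk2n1 (-0.20), Camk2a probe 49E05 (-1.48), Camk2n2 (-1.49) and Mapk8ip1 (-0.82). Corrected ratios turned Prkar1a (0.028) and Camk2n1 (0.20) in CKIN and Camk2b (-0.24) in NS398, and the test against 0 turned Map2k5 (-0.039), Prkar1a (0.12) and Camk2n1 (0.22) in CKIN. The causes were not tested.

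Over all probes, calls after injury numbered 690 in centred ratios (5.65% of them higher), 2430 in uncentred (99.4%), 20 in quantile (70%), 33 in scaled (87.9%) and 351 in corrected ratios (32.8%), and 1823 (28.3%) with only the compared groups in the fit. In CKIN they numbered 748 (7.35% higher), 2232 uncentred (100%), 618 quantile (25.2%), 1227 scaled (9.62%), 24 corrected (37.5%) and 6 with the array set as a block. In MP they numbered 90 (2.22% higher), 3169 uncentred (100%), 35 quantile (25.7%), 646 scaled (4.64%) and 46 corrected (28.3%), and in Acet 62 (8.06% higher), 3370 uncentred (100%), 47 quantile (34%), 507 scaled (5.52%) and 45 corrected (26.7%). In Indo they numbered 507 (19.5% higher), 290 uncentred (7.93%), 899 quantile (52.8%), 741 scaled (31%) and 367 corrected (34.9%), and in NS398 986 (48.6% higher), 1977 uncentred (2.68%), 1034 quantile (59.1%), 587 corrected (38.8%) and 125 with only the compared groups. In Injured 4 hr against the PBS pool they numbered 1072 (95.1% higher), 4408 uncentred (0.0454%), 1541 quantile (67.9%), 1497 scaled (82.8%) and 2050 (66.7%) with only the compared groups.

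The replicate numbers were not taken to pair the arrays. Over 63 pairs of same-numbered arrays the correlation of deviations from group means was -0.23 to 0.51, with 7 above 0.1. The highest were 0.51 for MP 2 with Acet 2 and 0.34 to 0.36 among MP 1, NS398 1 and Acet 1. Whether some same-numbered arrays shared their handling was not tested. With the number as a replicate block 10 kinase probes passed after injury, 10 in CKIN, 2 in MP, 3 in Acet, 7 in Indo, 4 in NS398 and 11 in Injured 4 hr against the PBS pool.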
